A study of Mus musculus with 12 samples.

Results

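Pgm5 and Tmem252 are 2 of the 55421 Ensembl genes in a table of read counts from MOC2, a line of mouse oral squamous carcinoma cells. They were picked by symbol because both had some of the steepest rises under paclitaxel in the cells labelled EV-proficient, so their values in that comparison are a description with no test. There, among genes with a mean of at least 5 CPM (counts scaled to the size of each library) over the 2 groups compared, the steepest rises (log2 fold change) were Pgm5 (7.67), Lcn2 (6.36), Tmem252 (5.72), Rsad2 (5.65), Oasl2 (5.59) and Ifit3 (5.52). Both genes passed the filter on low counts, which left 18108 genes to be tested.

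The study asked what extracellular vesicles (EVs), the membrane particles that cells shed, add to the signals of tumour cells driven into senescence. A derivative of the line named MOC2-25 was labelled EV-proficient, and a derivative named MOC2-27, in which vesicle release was blocked by a genetic change in a gene that the labels do not name, was labelled EV-deficient. Each derivative was sampled as a control with DMSO as its labelled treatment and after 48 h in 600 nM paclitaxel, a drug that stabilises microtubules and was used here to induce senescence. Each of the 4 groups held 3 libraries of polyadenylated RNA, and the sources used here do not say that these came from separate cultures, so p-values measure the spread between these samples only. An EV label is also 1 derivative line, so vesicle status and whatever else sets the lines apart cannot be told apart.

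The PGM5 protein, also called aciculin, belongs by sequence to the phosphohexomutases, the enzymes that move phosphate groups around hexose sugars, but it lacks appreciable phosphoglucomutase activity. It is known instead as a structural protein of adherens junctions, focal adhesions and the costameres of muscle, where it binds dystrophin, utrophin, filamin C and the Xin proteins. Smooth and striated muscle are the tissues it is best known for. Tmem252 encodes a small predicted transmembrane protein whose function is little characterised.

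The genes are neighbours on mouse chromosome 19 and point toward each other. In the GRCm38 coordinates of GENCODE M21, Tmem252 (ENSMUSG00000048572) occupies chr19:24674008-24682233 on the plus strand, with 1 transcript of 2 exons. Pgm5 (ENSMUSG00000041731) occupies chr19:24683016-24861855 on the minus strand, with 4 transcripts and 11 exons in the coding one. Their 3′ ends are 782 bases apart in that annotation, whereas the RefSeq gene bodies overlap there by 1401 bases. The libraries kept strand information, but whether strand was used in counting is not given in the sources used here, so reads from the overlap cannot be told apart between the genes.

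The start sites lie at the far ends of the pair, so the promoters do not face each other. Both promoters are shown because both genes rose together under the drug. Each window runs from 250 bases before the RefSeq start to 50 bases after it, in GRCm38.p6, and is written 5′ to 3′ on the gene's own strand. That of Tmem252 is chr19:24673758-24674057 on the plus strand and that of Pgm5 is chr19:24861793-24862092 on the minus strand. Capitals mark matches to a searched motif.
Tmem252: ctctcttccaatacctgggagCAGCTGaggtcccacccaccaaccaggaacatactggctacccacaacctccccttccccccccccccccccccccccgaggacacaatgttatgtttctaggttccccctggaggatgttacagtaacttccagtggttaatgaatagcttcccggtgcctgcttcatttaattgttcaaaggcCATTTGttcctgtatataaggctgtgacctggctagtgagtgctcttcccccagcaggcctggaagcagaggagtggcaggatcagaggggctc
Pgm5: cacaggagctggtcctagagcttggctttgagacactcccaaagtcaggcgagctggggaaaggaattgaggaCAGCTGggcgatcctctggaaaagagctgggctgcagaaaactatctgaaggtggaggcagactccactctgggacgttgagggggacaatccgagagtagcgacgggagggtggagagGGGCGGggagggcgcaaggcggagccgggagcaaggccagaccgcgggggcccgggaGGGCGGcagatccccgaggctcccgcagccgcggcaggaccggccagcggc
The Pgm5 window held 66.3% G and C and the Tmem252 window 55.3%, against a median of 52.7% over the 32851 RefSeq promoters of that length.

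Motifs were searched on both strands. The GC box GGGCGG occurred in the Pgm5 window at 2 places, beginning 58 bases and 1 base before the start, and 35.7% of all promoters held that motif. The Tmem252 window did not hold it. An E-box CANNTG, present in 72.3% of all promoters, was in both windows. In both, the E-box was at one place CAGCTG, a form held by 16.3% of promoters and contained in the CANNTG search, which was added after the sequences had been seen. It began 177 bases before the Pgm5 start and 229 bases before the Tmem252 start, and Tmem252 had another E-box, CATTTG, beginning 44 bases before its start. Neither window held TATAAA (13.6% of promoters), the AP-1 motif TGANTCA (7.8%), the interferon element, GAAA with NN between it and another GAAA (3.4%), or the CArG box of serum response factor (1.6%). Only the exact letters TATAAA were searched, and other forms of a TATA box were not. The Tmem252 window holds the like stretch tatataag after its CATTTG, so a TATA box there was not tested. A match describes letters in these windows and is no evidence of binding.

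Library totals ran between 23263472 and 62955757 counts, and 3 counts, taken as a floor, correspond to 0.0492 to 0.121 CPM. All CPM values use scaled library sizes. The labelled cell type was checked against 7 markers of squamous epithelium, whose summed level was 4870 to 5270 CPM in EV-proficient and 5070 to 5490 CPM in EV-deficient DMSO libraries. It was lower under paclitaxel without overlap, at 3380 to 3700 and 3020 to 3140 CPM, and its part in the values below was not tested. Of the 5 markers that were tested, 1 rose and 3 fell under the EV-proficient label, and 1 rose and 4 fell under the other. Over all tested genes, paclitaxel was called higher for 31.1% and lower for 27.1% under the EV-proficient label, and for 32.4% and 30.5% under the EV-deficient label. The one that rose in both was Epcam, an epithelial adhesion gene, and the keratin gene Krt8 had the highest mean level in 3 of the 4 groups. The basal squamous markers Krt5 and Trp63 were nearly absent with and without the drug, at 0 to 8 and 0 to 11 counts per library, and were not tested. Krt14, another basal marker of the list, was abundant, averaging 191 CPM in cells labelled EV-proficient both without and with the drug. In cells labelled EV-deficient Krt14 averaged 681 CPM without and 80 CPM with the drug. Because the blocked gene is not named, the EV labels could not be checked against it. The authors' table also holds a row for an added dngfr sequence, whose carrier the labels do not give, and in this row the lines crossed. It stood at 5.73 to 12.2 CPM in EV-proficient DMSO and 1.89 to 2.54 CPM in EV-deficient DMSO libraries. Under paclitaxel it stood at 2.47 to 3.76 CPM in the libraries labelled EV-proficient and at 9.63 to 12.4 CPM in those labelled EV-deficient. Between the labels 23% of the tested genes were called under DMSO and 37.8% under paclitaxel. Of the 2834 genes called between the EV labels under both treatments, 2722 (96%) had opposite signs. Every direction and fold below that rests on an EV label therefore holds for the libraries as labelled. Whether the line labels were exchanged among the libraries of one treatment was not tested. Were they exchanged, each fold under paclitaxel given per EV label would compare different lines, and the interaction values would change. The order of drug and no drug does not rest on those labels.

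Both genes were nearly silent without drug and were detected in every library after paclitaxel, whichever EV label the cells carried. Pgm5 lay between 0 and 0.5 CPM in the 6 DMSO libraries and between 3.64 and 14.8 CPM in the 6 paclitaxel libraries. Tmem252 lay between 0.117 and 0.803 CPM in the former and between 4.04 and 17.2 CPM in the latter. For neither gene did any paclitaxel library reach down to any DMSO library. In bulk RNA, more cells with the transcript and more transcript per cell cannot be told apart.

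**Figure D1:**
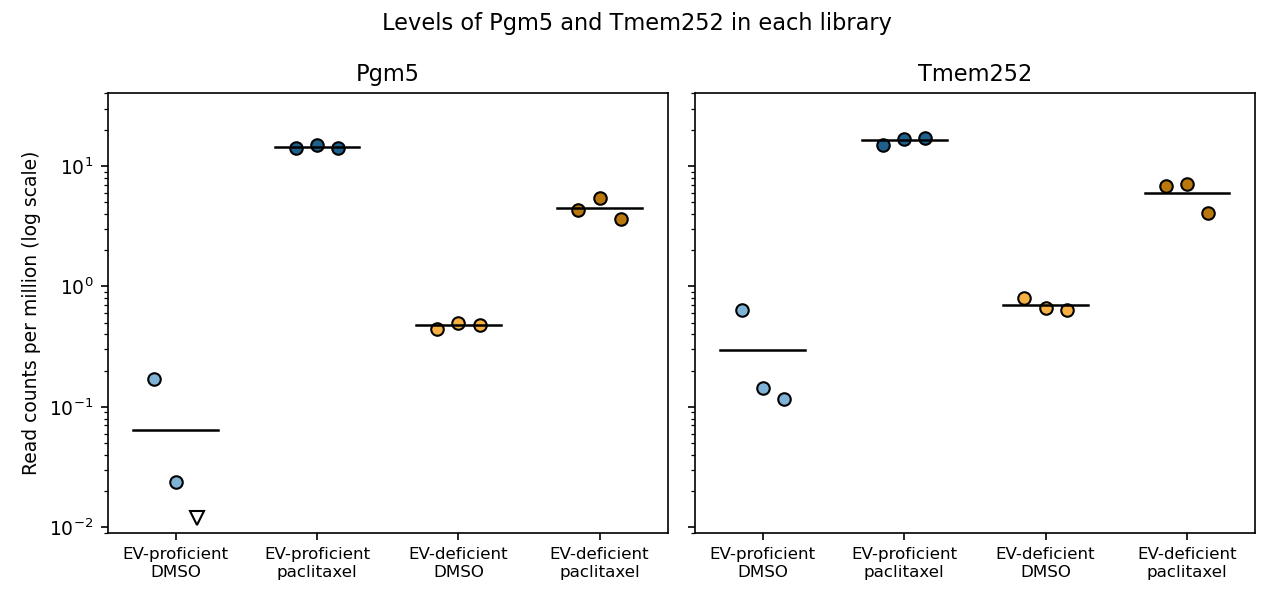
CPM (log scale) of Pgm5 and Tmem252 in each of the 12 libraries, with points for libraries, horizontal bars for the means of 3, and an open triangle for the library with 0 Pgm5 counts. The order of the groups from lowest to highest is the same for both genes: EV-proficient DMSO, EV-deficient DMSO, EV-deficient paclitaxel and EV-proficient paclitaxel.

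Pgm5 had 7, 1 and 0 counts in the EV-proficient DMSO libraries 1 to 3 (0.171, 0.0239 and 0 CPM). It had 717, 843 and 350 counts in the EV-proficient paclitaxel libraries (14.2, 14.8 and 14.2 CPM). The 3 treated libraries were nearly equal, and the untreated ones were at the limit of detection, with 7 of their 8 counts in library 1. The group means were 0.0648 ± 0.0923 and 14.4 ± 0.377 CPM (SD, n = 3 each), a log2 fold change of 7.67 ± 0.35 (SE). That was the 10th highest of the 18108 tested genes. The 8 untreated counts have a 95% Poisson interval of 3.45 to 15.8 counts, so the size of the rise is imprecise. The ratio of pooled counts, scaled for depth, was 211, with a 95% interval of 107 to 490. That interval covers counting error alone and leaves out the spread between libraries. PCR copies of a molecule were not told apart, so it may be too narrow even for counting error.

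Tmem252 had 26, 6 and 4 counts in the EV-proficient DMSO libraries (0.633, 0.144 and 0.117 CPM). In the EV-proficient paclitaxel libraries it had 747, 962 and 425 counts (14.8, 16.9 and 17.2 CPM). Library 1 was again the highest of the untreated group, with 26 of 36 counts, and the groups did not overlap. The means were 0.298 ± 0.291 and 16.3 ± 1.33 CPM (SD, n = 3 each), a log2 fold change of 5.72 ± 0.33 (SE), the 67th highest. The ratio of pooled counts was 52.5 (95% interval 37.8 to 75.1).

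The size of both rises depended on EV-proficient DMSO library 1. Without it the Pgm5 fold change was 9.83 on the log2 scale and the pooled ratio was 1100, with an interval of 197 to 43400 since 1 count then remained. For Tmem252 the values without it were 6.92 and 123 (interval 66.5 to 256). This library also held 348 genes with at least 5 counts there and at most 1 count in each of the other libraries of its group, against 209 and 191 such genes for libraries 2 and 3. Whether these extra transcripts and the counts of Pgm5 and Tmem252 share a source was not tested. In this comparison 31.1% of the tested genes were called higher, and 33.1% had every paclitaxel library above every DMSO library.

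The response in the cells labelled EV-deficient shares no library with the comparison that chose the genes, and it is the only comparison in which they are tested. Both rose there as well, to a like extent as each other. Pgm5 went from 25, 24 and 22 counts without drug (0.446, 0.5 and 0.482 CPM) to 232, 253 and 222 counts (4.32, 5.47 and 3.64 CPM). The untreated libraries were tightly grouped and lay above the counting floor, and the groups did not overlap. The means were 0.476 ± 0.0277 and 4.48 ± 0.925 CPM (SD, n = 3 each), a ratio of 9.4. The log2 fold change was 3.22 ± 0.26 (SE; edgeR quasi-likelihood adjusted p = 4.6e-10 over all tested genes).

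Tmem252 went from 45, 32 and 29 counts (0.803, 0.667 and 0.636 CPM) to 363, 327 and 246 counts (6.76, 7.07 and 4.04 CPM) in those cells. Treated library 3 was the lowest of its group for both genes, and it still stood above every untreated library. It also stood apart from its group, with 1093 genes at 5 or more counts there and at most 1 count in each of the others, against 599 and 574 such genes for treated libraries 1 and 2. Without it the fold changes were 3.35 for Pgm5 and 3.28 for Tmem252. The means were 0.702 ± 0.0888 and 5.96 ± 1.67 CPM (SD, n = 3 each), a ratio of 8.49 and a log2 fold change of 3.07 ± 0.28 (SE; edgeR quasi-likelihood adjusted p = 4.8e-09). Both of the 2 genes were thus called higher in a comparison that called 32.4% of all tested genes higher, and 35.2% of the tested genes had every paclitaxel library above every DMSO library there. Their fold changes ranked 754th and 858th of 18108 there, against 10th and 67th in the cells labelled EV-proficient, with the labels as given. Leaving out any 1 of the 6 EV-deficient libraries kept the fold change of Pgm5 between 3.06 and 3.35 and that of Tmem252 between 2.93 and 3.28.

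**Figure D2:**
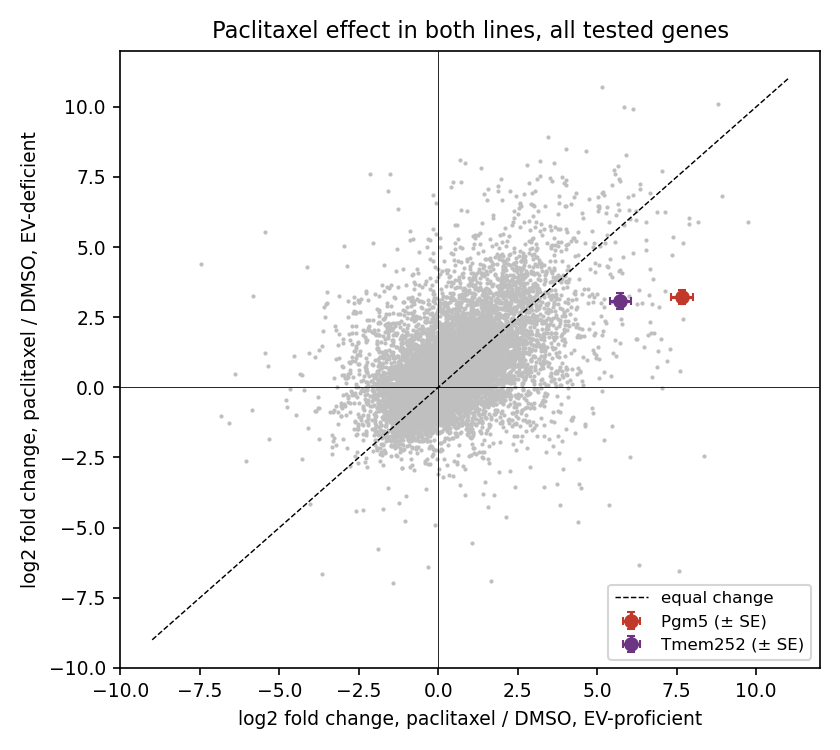
Log2 fold change under paclitaxel in the cells labelled EV-deficient (vertical) against that in the cells labelled EV-proficient (horizontal); grey points are the 18108 tested genes, coloured points are Pgm5 and Tmem252 with SE bars, and the dashed line marks equal change. Both genes lie at 3.22 and 3.07 on the vertical axis and to the right of the line, at 7.67 and 5.72.

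With the EV labels as given, the order of the 2 lines in both genes turned with the drug. Without drug the libraries labelled EV-deficient were higher, 0.446 to 0.5 CPM against 0 to 0.171 CPM for Pgm5 and 0.636 to 0.803 CPM against 0.117 to 0.633 CPM for Tmem252. The Pgm5 groups were well apart, whereas the highest EV-proficient library of Tmem252 (0.633 CPM) lay just under the lowest EV-deficient one (0.636 CPM). The log2 differences were 2.75 ± 0.5 (SE) for Pgm5 and 1.2 ± 0.41 (SE) for Tmem252, with no test because the untreated EV-proficient libraries took part in the choice of the genes. Without EV-proficient DMSO library 1 they were 4.92 and 2.41.

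Under paclitaxel the libraries labelled EV-proficient were the higher ones. Pgm5 stood at 14.2 to 14.8 CPM there and at 3.64 to 5.47 CPM in the libraries labelled EV-deficient, and Tmem252 at 14.8 to 17.2 CPM against 4.04 to 7.07 CPM. The groups were far apart for both genes, with mean levels 3.21 and 2.73 times as high under the EV-proficient label. As EV-deficient minus EV-proficient, the log2 differences were -1.69 ± 0.2 (SE) for Pgm5 and -1.45 ± 0.23 (SE) for Tmem252. A pattern of complete separation in these directions, EV-deficient higher under DMSO and lower under paclitaxel, was found for 13.6% of the tested genes. Taken singly, 24.8% were separated in the former direction and 24.1% in the latter. The paclitaxel effect in the cells labelled EV-deficient minus that in the cells labelled EV-proficient was -4.44 ± 0.52 (log2, SE) for Pgm5 and -2.65 ± 0.47 for Tmem252. Without EV-proficient DMSO library 1 the values were -6.62 and -3.87. These differences contain the choice of the genes and were not tested. They also rest on the EV labels, and an alternative chosen after seeing the data read the same fit with the labels exchanged under paclitaxel. EV-deficient paclitaxel against EV-proficient DMSO libraries then gave 5.98 ± 0.37 (log2, SE) for Pgm5 and 4.27 ± 0.34 for Tmem252, and EV-proficient paclitaxel against EV-deficient DMSO libraries gave 4.91 ± 0.26 and 4.52 ± 0.29. The latter minus the former was -1.07 ± 0.57 for Pgm5 and 0.26 ± 0.5 for Tmem252. Both genes were thus higher with the drug in either reading, while the size of the difference between the lines depended on the labels. For Tmem252 the exchanged value lay within its SE of 0, so its sign is not settled. The exchanged values were not refitted without EV-proficient DMSO library 1, on which the rises depend. The interaction was called for 40.7% of all tested genes.

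Levels of the genes were compared with each other per kilobase of exon, using 3.61 kb for Pgm5 and 5.03 kb for Tmem252. Without drug, the mean levels in the cells labelled EV-proficient were 0.018 CPM per kb for Pgm5 and 0.0592 CPM per kb for Tmem252. At those levels 3.64% and 10.4% of the tested genes were lower. Under paclitaxel the same cells had 3.98 and 3.24 CPM per kb, above 55.7% and 52.3% of the tested genes, so both genes went from among the lowest to the middle of the tested genes. In the cells labelled EV-deficient, they went from 0.132 and 0.139 CPM per kb (above 18% and 18.7% of genes) to 1.24 and 1.18 CPM per kb (above 39.3% and 38.7%).

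The ratio of Pgm5 to Tmem252 per kb was 1.15 to 1.34 in the EV-proficient paclitaxel libraries. It was 0.774 to 1.06 in EV-deficient DMSO and 0.891 to 1.26 in EV-deficient paclitaxel libraries, so these 3 groups held the genes at near-equal levels. In EV-proficient DMSO libraries it was 0 to 0.375, below all other libraries, on 8 counts of Pgm5.

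Over the 12 libraries, log2 CPM (prior count 2) of Pgm5 and Tmem252 had a Pearson correlation of 0.991 (Spearman 0.958). The libraries fall into 4 groups, and how much of this value the groups set was not tested. Within the 6 paclitaxel libraries it was 0.978 (Spearman 0.829) and within the 6 DMSO libraries 0.956 (Spearman 0.829). The points share library depth, and reads from the 3′ overlap may count for either gene. Among the 11760 genes compared by this measure, with a mean of at least 1 CPM, Tmem252 was the gene most like Pgm5 and Pgm5 the gene most like Tmem252. Both had been chosen for steep rises in 6 of these libraries, which fixes part of their likeness, and the values within a treatment still span both EV labels.

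**Figure D3:**
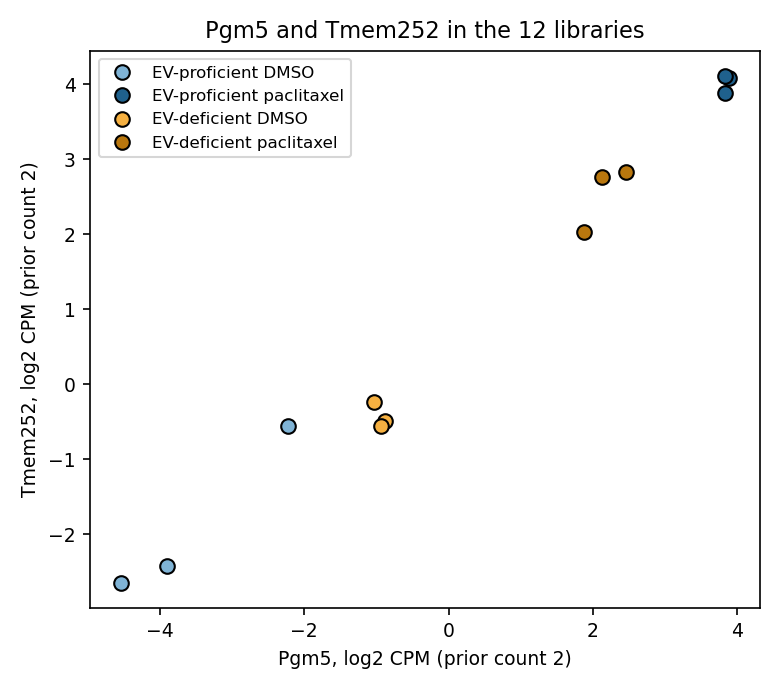
Log2 CPM (prior count 2) of Tmem252 against that of Pgm5, each point being 1 of the 12 libraries, coloured by group. The points rise together from the EV-proficient DMSO libraries at the lower left to the EV-proficient paclitaxel libraries at the upper right.

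Next to Pgm5 after Tmem252 came Nbr1, an autophagy cargo receptor (0.99), Dnm1, the GTPase dynamin of endocytosis (0.989), Tmem231, a protein of the ciliary transition zone (0.987), and Srpk2, a kinase of splicing factors (0.987). Next to Tmem252 after Pgm5 came Coq10a, a mitochondrial coenzyme Q binding protein (0.991), Vamp1, a synaptic-vesicle SNARE (0.988), Sash1, a scaffold protein (0.984), and Nek9, a mitotic kinase (0.983). These genes had the same order of groups but smaller fold changes under paclitaxel than the pair. Dnm1 had mean levels of 1.1 CPM in EV-proficient DMSO, 3.29 in EV-deficient DMSO, 10.2 in EV-deficient paclitaxel and 17.6 CPM in EV-proficient paclitaxel libraries. Likeness above 0.95 was common, with 236 genes (2.01%) for Pgm5 and 261 (2.22%) for Tmem252. By rank correlation (Spearman) Tmem252 was only the 179th gene most like Pgm5, Pgm5 only the 164th most like Tmem252, and none of the named genes was among the 5 most alike.

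The rise did not extend evenly to the genes around the pair. Within 500 kb on either side, 16 other genes of GENCODE M21 were followed, all of them in the table, of which 9 were tested. Under paclitaxel 1 rose, 3 fell and 5 were not called in the cells labelled EV-proficient, with a median log2 fold change of -0.29, against a median of 0.05 over all tested genes. In those labelled EV-deficient, 2 rose, 3 fell and 4 were not called (median -0.4, against 0.07 over all). In that comparison 62.9% of all tested genes were called in either direction, and in the EV-proficient one 58.2%.

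Pip5k1b, a kinase that makes phosphatidylinositol bisphosphate, was the neighbour that rose in both. Its level rose from 41.7 ± 2.57 to 66.3 ± 3.6 CPM under the EV-proficient label and from 37.4 ± 2.39 to 64 ± 4.24 CPM under the other (SD, n = 3 each). The log2 fold changes were 0.67 ± 0.07 and 0.77 ± 0.07 (SE; edgeR quasi-likelihood adjusted p = 1.1e-07 and 7.8e-09). The lincRNA AC150898.1, beside the Pip5k1b start, rose in the cells labelled EV-deficient (1.72 ± 0.53 SE, edgeR adjusted p = 0.0078), a call lost without EV-deficient DMSO library 2 (1.41). In the other cells it was not called (0.69 ± 0.54 SE).

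The tested gene nearest the Pgm5 start, Gm10053 at 13.8 kb, was called in neither (-0.76 ± 0.44 and -0.94 ± 0.43 SE). Cbwd1, at 58.1 kb, fell in both (-0.4 ± 0.09 and -0.5 ± 0.09 SE). Dock8, an exchange factor for CDC42, fell in the cells labelled EV-proficient (-1.45 ± 0.09 SE, edgeR adjusted p = 1.1e-11) and was not called in the others (-0.15 ± 0.08 SE). Kank1, which links adhesions to cortical microtubules, was not called in the first (0.12 ± 0.08 SE) and fell in the second (-0.4 ± 0.08 SE).

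On the Tmem252 side, Fam122a, an inhibitor of protein phosphatase, fell in both (-0.29 ± 0.12 and -0.5 ± 0.12 SE), but the former call (edgeR adjusted p = 0.049) was lost in 8 alternative fits. The pseudogene Gm16216, on that side too, was called in neither (-1.15 ± 0.61 and -0.21 ± 0.6 SE). On the Pgm5 side the pseudogene AC126944.1 was called in neither (-0.02 ± 0.47 and -0.66 ± 0.49 SE), and Foxd4, a forkhead gene 37.4 kb from the Pgm5 start, had 0 to 14 counts per library and was not tested.

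**Figure D4:**
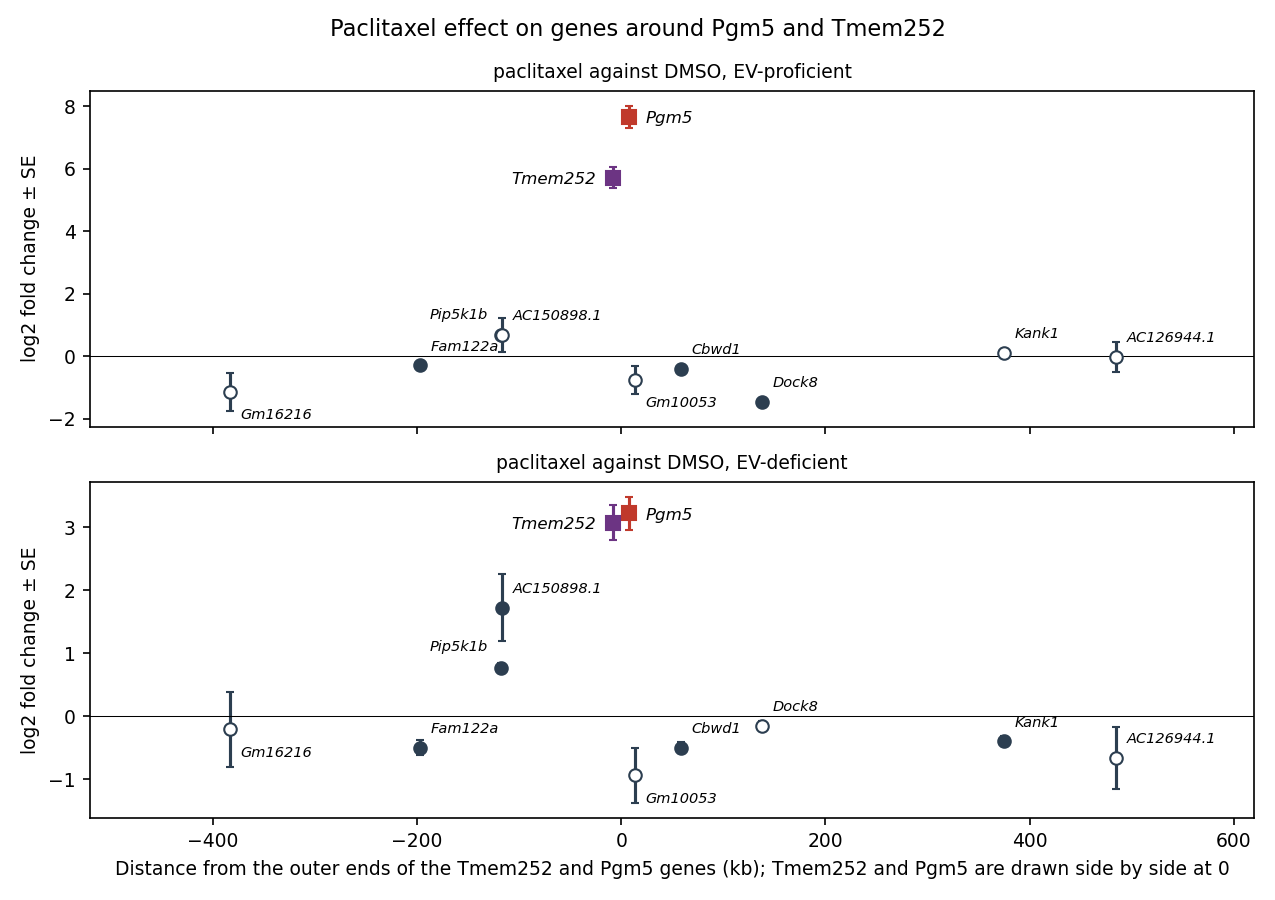
Log2 fold change under paclitaxel (± SE) of Tmem252, Pgm5 and the 9 tested neighbours, by distance in kb from the outer ends of the pair, for the EV-proficient label (upper plot) and the EV-deficient label (lower plot); filled circles passed the test, open circles did not, and squares are the pair. Neighbours lie between -1.45 and 0.69 in the upper plot and between -0.94 and 1.72 in the lower, below the pair in both.

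The enzymes related to PGM5 by sequence changed by less than Pgm5 did in either line, and not all in its direction. Pgm1 (ENSMUSG00000029171) and Pgm2 (ENSMUSG00000025791), named as in the authors' table, interconvert glucose phosphates or pentose phosphates, Pgm2l1 makes glucose bisphosphate, and Pgm3 acts in the synthesis of the sugar nucleotide used for glycosylation. In the cells labelled EV-proficient none of these 4 was called by edgeR (0 with an unadjusted p under 0.05), DESeq2 or limma-voom. Their log2 fold changes were -0.05 ± 0.07 (Pgm1), -0.09 ± 0.07 (Pgm2), 0.18 ± 0.11 (Pgm2l1) and 0.18 ± 0.1 (Pgm3; SE). Pgm2 was called without EV-proficient paclitaxel library 3 (-0.19), Pgm2l1 without EV-proficient DMSO library 1 (0.31) and Pgm3 with upper-quartile scaling (0.24). Over all tested genes 58.2% were called there. In those labelled EV-deficient, 2 rose and 2 fell, where 32.4% of all tested genes rose and 30.5% fell. Pgm2l1 rose by 0.82 ± 0.11 (SE, edgeR adjusted p = 1.1e-06) and Pgm1 fell by 0.35 ± 0.07. Pgm2 (0.19 ± 0.07) and Pgm3 (-0.25 ± 0.1) passed by little, and 4 and 5 of the alternative fits lost these calls. Per kb, Pgm1 (14.9 to 19 CPM per kb over the group means) and Pgm2 (18.9 to 22.2) stood far above Pgm5 in every group. Pgm2l1, at 1.24 CPM per kb in EV-proficient DMSO and 1.41 in EV-proficient paclitaxel cells, was above Pgm5 before the drug and below it after. Under the EV-deficient label it was above Pgm5 both before (1.03 against 0.132 CPM per kb) and after (1.82 against 1.24).

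Among the dystrophin and utrophin complex, to which PGM5 protein binds, members moved both ways. Of 14 genes listed, 11 were tested. With paclitaxel 5 rose and 2 fell under the EV-proficient label (median log2 fold change 0.48), and 6 rose and 2 fell under the EV-deficient label (median 0.4). Over all tested genes 31.1% rose and 27.1% fell under the former label, and 32.4% and 30.5% under the latter. Dmd, which encodes dystrophin, went in opposite directions. Under the EV-proficient label it fell from 12.2 ± 1.64 to 3.71 ± 0.595 CPM (SD, n = 3 each), a log2 fold change of -1.69 ± 0.14 (SE, edgeR adjusted p = 1.5e-09). Under the EV-deficient label it rose from 2.96 ± 0.13 to 17 ± 1.77 CPM (SD, n = 3 each), a log2 fold change of 2.52 ± 0.14 (SE, edgeR adjusted p = 2.3e-12). Utrn, which encodes its relative utrophin, was not called in either (0.05 ± 0.07 and 0.16 ± 0.07 SE).

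Sgce, which encodes epsilon-sarcoglycan, came closest to Pgm5 under the EV-proficient label. It rose from 0.323 ± 0.155 to 5.93 ± 0.621 CPM (SD, n = 3 each; 4.21 ± 0.31 SE, edgeR adjusted p = 2.3e-10), but it was not called under the EV-deficient label (0.12 ± 0.26 SE). Dtna, encoding alpha-dystrobrevin, rose by 1.09 ± 0.09 (SE, edgeR adjusted p = 8.9e-10) in the former cells and by 0.3 ± 0.08 in the latter. Sntb1, a syntrophin gene, rose under the EV-proficient label (1.36 ± 0.44 SE, edgeR adjusted p = 0.011), a call lost with limma-voom (1.22) and without EV-proficient paclitaxel library 1 (0.7).

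Under the EV-deficient label Sgcb, encoding beta-sarcoglycan, rose by 1.27 ± 0.1 (SE, edgeR adjusted p = 3.5e-10) and Dtnb, encoding beta-dystrobrevin, fell by 0.87 ± 0.06 (SE, edgeR adjusted p = 6.8e-11). Sspn, the sarcospan gene, went there from 0 to 2 counts per library without drug to 19 to 32 counts. That was at least 8.01-fold higher when measured against the floor of 3 counts per untreated library (edgeR adjusted p = 7.6e-05), and the median of the list stayed at 0.4 with Sspn at that bound.

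The filamin, Xin and adhesion plaque genes, whose products share sites with PGM5, fell more often than they rose. Of the 18 tested, 1 rose and 9 fell in the cells labelled EV-proficient (median -0.54), and 1 rose and 11 fell in those labelled EV-deficient (median -0.5). Among all tested genes 27.1% and 30.5% were called lower. Of the binding partners of PGM5 in this list, Flnc and Xirp2 were abundant and fell. Xirp1, the other Xin gene, averaged 0.106 to 0.345 CPM over the groups and was not called (-1.29 ± 0.7 and -1.47 ± 0.68 SE). Flnc, which encodes filamin C, fell from 896 ± 39.3 to 269 ± 22.1 CPM and from 1060 ± 36.6 to 263 ± 62.2 CPM (SD, n = 3 each). Its log2 fold changes were -1.74 ± 0.11 and -2.01 ± 0.11 (SE; edgeR adjusted p = 1.9e-11 and 1.2e-12). Xirp2, a Xin gene of striated muscle, fell from 507 ± 27 to 50.1 ± 6.98 CPM and from 375 ± 19.8 to 116 ± 38.3 CPM (SD, n = 3 each). Its log2 fold changes were -3.34 ± 0.15 and -1.69 ± 0.14 (SE; edgeR adjusted p = 2.6e-13 and 1.2e-09).

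Flna, which encodes filamin A, fell by 1.03 ± 0.08 and by 1.1 ± 0.08 (log2, SE; edgeR adjusted p = 2.4e-10 and 6.1e-11). Tln1, which encodes talin, the link from integrins to actin, fell by 0.96 ± 0.07 and by 0.72 ± 0.07 (SE; edgeR adjusted p = 4.5e-10 and 2.4e-08). Zyx, which encodes the actin-binding plaque protein zyxin, fell by 0.57 ± 0.06 and by 1.35 ± 0.06 (SE; edgeR adjusted p = 1.2e-07 and 2.1e-13). Ilk, encoding integrin-linked kinase, fell in the cells labelled EV-deficient (-1.37 ± 0.47 SE, edgeR adjusted p = 0.015), a call lost without EV-deficient DMSO library 3 (-1.13) or EV-deficient paclitaxel library 1 (-1.07). The genes that rose were Parvb in the cells labelled EV-proficient (0.21 ± 0.06 SE) and Lims1 in those labelled EV-deficient (0.44 ± 0.06 SE), named here after their values were seen.

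**Figure D5:**
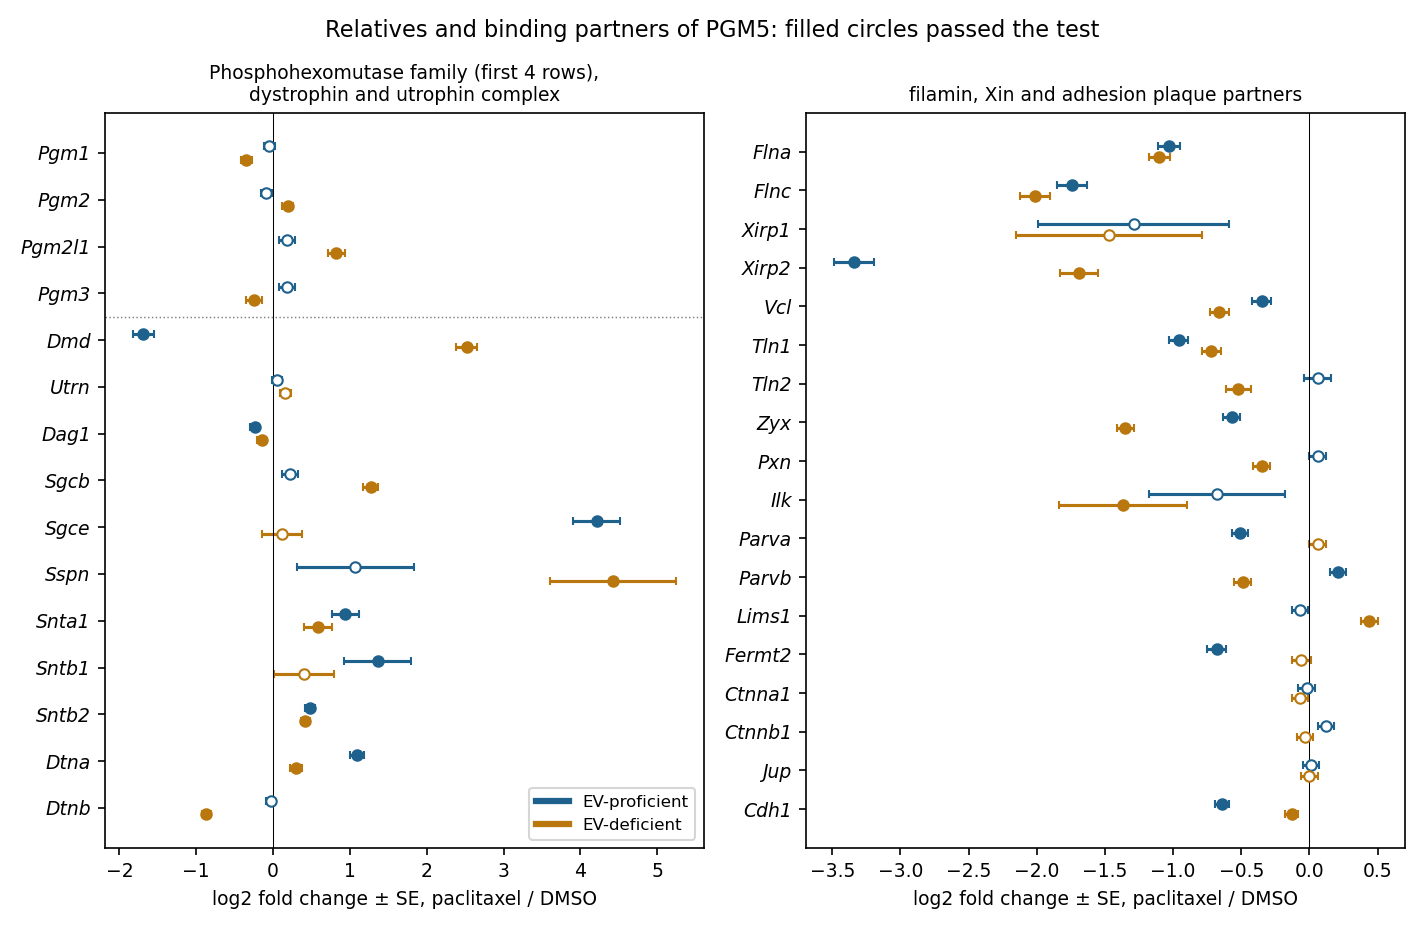
Log2 fold change under paclitaxel (± SE) of the relatives of PGM5 and the dystrophin complex (left) and of the filamin, Xin and adhesion plaque genes (right), in blue for the EV-proficient and orange for the EV-deficient label; filled circles passed the test and open circles did not. Sgce (4.21) stands out to the right for the EV-proficient label, the EV-deficient point of Sspn is a fitted value with untreated libraries at the floor, Dmd lies on opposite sides of 0, and most of the right plot lies below 0.

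Directions of small changes in the cells labelled EV-deficient depend on the scaling. With upper-quartile scaling the median of all genes there moved from 0.07 to 0.26 and the share of called genes that were higher from 51.5% to 63.4%, and Pgm3 was no longer called (-0.07). Between the labels under paclitaxel that share moved from 42.4% to 58.2%.

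Markers of muscle, the tissue PGM5 is best known for, were low in every library. The summed level of 10 muscle markers was 1.02 to 1.58 CPM in EV-proficient DMSO, 4.15 to 5.14 in EV-proficient paclitaxel, 1.71 to 1.86 in EV-deficient DMSO and 2.68 to 3.37 CPM in EV-deficient paclitaxel libraries. Of the 5 that were tested, 2 rose and 1 fell under the EV-proficient label, and 2 rose under the other, where 31.1% and 32.4% of all tested genes rose. Actc1, a sarcomere actin gene, was at most at 3 counts in every library, and Myog, a regulator of muscle differentiation, was so in 3 of the 4 groups. Myod1, the regulator that commits cells to skeletal muscle, averaged 0.0845, 2.91, 0.465 and 0.421 CPM in these groups. Des, at most at 3 counts in every DMSO library, averaged 0.042, 0.342, 0.0358 and 0.283 CPM. Myh11 averaged 0.349, 0.658, 0.405 and 0.966 CPM in the same order, and Cnn1 0.495, 0.524, 0.541 and 0.622 CPM. Acta2 went the other way, at 0.236, 0.0124, 0.122 and 0.0351 CPM.

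The summed level of 4 leukocyte markers was 6.61 to 9.71 CPM over the 6 DMSO and 22.4 to 39.9 CPM over the 6 paclitaxel libraries, and nearly all of it was Cd68, a lysosomal protein gene of macrophages. Cd68 went from 6.47 ± 0.405 to 30.1 ± 1.99 CPM and from 7.92 ± 0.53 to 30 ± 8.92 CPM (SD, n = 3 each). Ptprc, the general leukocyte marker, averaged 0.396, 1.01, 0.89 and 0.765 CPM over the 4 groups. These 2 were the ones tested, and 2 were called higher under the EV-proficient label and 1 under the other (all tested genes, 31.1% and 32.4%). Itgam averaged at most 0.278 CPM and Cd3e was at most at 3 counts throughout. The sum of 4 fibroblast markers was 1.56 to 3.18 CPM without and 4.94 to 7.19 CPM with the drug, with 1 of 4 called higher under the EV-proficient label and 2 under the other (all tested genes, 31.1% and 32.4%). Pdgfra, the highest of them, went from 1.22 to 4.25 CPM and, under the EV-deficient label, from 1.77 to 4.23 CPM. For 3 endothelial markers the sums were 1.69 to 2.49 and 2.55 to 4.26 CPM, with 1 called higher under the EV-proficient label and 2 under the other. Under the EV-proficient label Pecam1 was called (0.383 to 1.19 CPM), and Cdh5 (-0.44 ± 0.29 SE) and Kdr (-0.13 ± 0.38 SE) were not. Pecam1 went from 0.593 to 1.32 CPM under the other label. Over all tested genes 31.1% and 32.4% were called higher, and lists of 3 or 4 genes are too short to set against those shares. The part of such cells in the levels of Pgm5 and Tmem252 was not tested.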

How the data were processed

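Per the labels' protocols, polyadenylated RNA was made into stranded libraries with dUTP in the second strand. The authors deposited whole-number read counts per gene, not normalized. Reads were handled with STAR 2.5.0a and GRCm38, per the submitters' processing notes; the counting program, the strand setting and the annotation release are not given in the sources used here. The table holds 55423 rows, of which 2 added rows (gfp, at 0 counts in every library, and dngfr) were left out of library sizes and tests.

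The analysis used edgeR 4.0.16 in R 4.3.3. The filterByExpr filter (minimum count 10) kept 18108 genes, and TMM scaling gave factors of 0.89 to 1.15. All 12 libraries entered 1 quasi-likelihood fit with 4 group means. Benjamini-Hochberg adjustment ran over the 18108 genes (threshold 0.05). The tests were first tested on simulated data, in which far fewer genes changed than were called here, so that check is no support for the calls above. Standard errors were derived from the fold change and its F statistic. No pair of replicates agreed within sampling noise (chi-square per degree of freedom 4.2 to 27.8 over 12 pairs).

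The genes and lists were chosen with earlier results of these data known. Some genes of these lists are not reported here. Named were all other tested relatives and neighbours, up to 4 called members per other list and paclitaxel comparison by size of change, and the 5 genes most alike. Alternatives were other scalings and filters, DESeq2 1.42.0, limma-voom (limma 3.58.1), a replicate block, a fit of only the compared groups, and fits with each library left out. Promoters came from RefSeq and gene models from GENCODE M21, which may not be the authors' release.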

Additional observations from a re-analysis of the deposited data

Results flagged for a closer look

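The added dngfr row, which the gene comparisons do not use, had a mean of 10.9 CPM in the EV-deficient paclitaxel libraries, every one of them above the DMSO libraries of that label (mean 2.15 CPM). Under the EV-proficient label the order was the other way, 8.99 CPM without and 3.24 CPM with the drug.

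Pgm5 and Tmem252 differed between the EV labels in opposite directions under the 2 treatments, with no overlap of libraries in either. The difference under paclitaxel minus that under DMSO was -4.44 (log2) for Pgm5 and -2.65 for Tmem252. The difference was not tested, because it contains the comparison that chose the genes. With the EV labels exchanged under paclitaxel the differences in the drug effect between the lines were -1.07 ± 0.57 and 0.26 ± 0.5 (SE). These were not refitted without EV-proficient DMSO library 1.

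Of the 26 genes named from the lists, 14 had a paclitaxel effect that differed between the EV labels by the interaction term of edgeR's quasi-likelihood test, as did 40.7% of all tested genes. The dystrophin complex and adhesion plaque genes were named for large called drug effects, which the interaction contains. Their adjusted p-values, and the 14 of 26, therefore partly follow from that choice and cannot be set against the share of all genes. Given as the effect under the EV-deficient label minus that under the EV-proficient label (log2, with the edgeR adjusted p), the relatives of PGM5 had -0.3 for Pgm1 (0.022), 0.28 for Pgm2 (0.026), 0.65 for Pgm2l1 (0.002) and -0.43 for Pgm3 (0.017). Members of the dystrophin complex had 4.22 for Dmd (4.7e-13), -4.09 for Sgce (5.8e-08), 1.05 for Sgcb (3.2e-06), -0.79 for Dtna (2.1e-05) and -0.84 for Dtnb (9.3e-08). Sspn had 3.36 (0.026), a value that depends on the prior count since its untreated EV-deficient libraries held at most 2 counts. Among the named adhesion plaque genes the term was called for Xirp2 at 1.65 (1e-06) and for Zyx at -0.78 (4.7e-07). Over all 18 genes of that list it was called higher for 5 and lower for 5. Among the neighbours it was 1.3 for Dock8 (2.1e-08) and -0.52 for Kank1 (0.0013).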

How the results depend on the processing

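The rises of Pgm5 and Tmem252 in the cells labelled EV-deficient kept their direction and their call under all 14 alternatives each that left the labels as given, at 3.06 to 3.41 and 2.93 to 3.28 (log2). With the replicate number as a block they were 3.22 and 3.06 (edgeR adjusted p = 8.9e-10 and 4.6e-09), and no call of the pair changed. Same-numbered libraries did not deviate together (18 correlations, -0.08 to 0.1), and 5 of 12 libraries correlated best with their own number, so the numbers were not taken as pairs. With 1 library left out, the values without a test were 7.18 to 9.83 for Pgm5 and 5.36 to 6.92 for Tmem252 under paclitaxel with the EV-proficient label, 2.27 to 4.92 and 0.84 to 2.41 between the labels under DMSO, -1.84 to -1.56 and -1.58 to -1.23 under paclitaxel, and -6.62 to -3.97 and -3.87 to -2.31 for the interaction. Counts of called genes were then 9637 to 10317 (EV-proficient), 10493 to 11310 (EV-deficient), 2980 to 3515 (labels under DMSO), 5738 to 6648 (labels under paclitaxel) and 6560 to 7367 (interaction). With the EV labels exchanged under paclitaxel, chosen after seeing the data, Pgm5 and Tmem252 had 5.98 and 4.27 under the EV-proficient label and 4.91 and 4.52 under the other. The interaction was then -1.07 and 0.26 (SE 0.57 and 0.5). With a prior count of 0.5, Tmem252 was the 4th gene most like Pgm5 and Pgm5 the 5th most like Tmem252. Of 1206 refitted values of 26 list genes, 1138 kept their side of the threshold, 44 lost a call, 24 gained one and 0 reversed. Low untreated counts limit the size of the EV-proficient rises.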
